A study of Mus musculus with 2 samples.

Results

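Keratin-positive cells made up 550 of the 11588 kept cells of the dTAG13 library, or 4.75% (exact binomial 95% interval 4.37 to 5.15, counting error only), out of 29466 kept cells in both libraries. They were chosen by their measured counts. A kept cell had at least 500 detected genes and at most 10% mitochondrial UMIs (unique molecular identifiers, 1 per captured transcript end), and a keratin-positive cell had at least 3 raw UMIs over Krt8, Krt18 and Krt19 and fewer than 4 over the trophoblast genes Rhox6, Plac1 and Hand1. They were compared with the 9271 kept cells of the same library that had 0 UMIs of the 3 keratins, called keratin-0 cells here. These 6 genes were used to choose the cells, so their levels are given as a description.

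The study profiled embryoid bodies, the aggregates that mouse embryonic stem cells form when they are let to differentiate, by droplet single-cell sequencing of transcript 3′ ends. The stem cells were of the male J1 line. One library came from embryoid bodies kept for 2 days in DMSO, the solvent. The other came from embryoid bodies kept for 2 days in dTAG13, a small molecule that brings proteins carrying an FKBP12(F36V) tag to degradation. The series is titled for Tex10, a nuclear protein of the rixosome and a cofactor at enhancers in stem cells, and neither the tagged protein nor the number of clones or embryoid bodies pooled is named in the labels. Each condition was 1 library, trypsin-dissociated and strained, so no difference between conditions or between groups of cells has a replicate check, and no p-value was made from cells. Intervals cover counting error only. The cells of a group share 1 library and are not replicates.

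Keratins 8 and 18 form the first intermediate filaments of simple epithelia: a type II keratin (Krt8) pairs with a type I keratin (Krt18 or Krt19). In the mouse embryo they appear in trophectoderm and in other early epithelia. Naive pluripotent cells express Nanog, Esrrb, Klf4 and Zfp42, which are switched off as cells leave the naive state, while Pou5f1 and Sox2 persist longer.

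The keratin-positive cells carried a median of 8569.5 UMIs (10th to 90th percentile 4290 to 19058) and 2650 genes, against 6891 UMIs (90th percentile 11406) and 2209 genes in the keratin-0 cells. A fixed minimum of 3 UMIs is passed more easily by a deeper cell. After every cell was thinned to 4000 UMIs, 263 of 10720 dTAG13 cells (2.45%, 2.17 to 2.76) met the rule, with 868 shallower cells left out. Mitochondrial UMIs were a median of 1.74% of a keratin-positive cell and 2% of a keratin-0 cell. The 2 libraries shared 63 kept barcodes, and 1 keratin-positive cell carried a barcode that was also among all barcodes of the DMSO library, before cells were filtered. Of 705 genes annotated on the Y chromosome (GENCODE M21), 703 had 0 UMIs in both libraries as given in the matrices used here, Ddx3y, Eif2s3y, Kdm5d and Uty among them. The line is labelled male, and whether these zeros reflect the cells or the files was not tested.

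The promoters of Krt8 and Krt18 are shown because these genes lie beside each other on chromosome 15 and were the pair that most of the chosen cells carried together, and those of Vcl and Myl9 as actin genes of the results further on, chosen after their CArG boxes were found. Each run is RefSeq sequence of build GRCm38.p6, 5′ to 3′ on the gene's strand, from 250 bases before the annotated start to 25 bases after it. Capitals mark a match on either strand to 1 of the motifs searched: the CArG box, which serum response factor binds, the AP-1 motif TGANTCA (N being C or G), and TATAAA. Krt8 lies at chr15:102004318-102004592, minus strand, Krt18 at chr15:102027966-102028240, plus strand, Vcl at chr14:20929148-20929422, plus strand and Myl9 at chr2:156775214-156775488, plus strand.
Krt8: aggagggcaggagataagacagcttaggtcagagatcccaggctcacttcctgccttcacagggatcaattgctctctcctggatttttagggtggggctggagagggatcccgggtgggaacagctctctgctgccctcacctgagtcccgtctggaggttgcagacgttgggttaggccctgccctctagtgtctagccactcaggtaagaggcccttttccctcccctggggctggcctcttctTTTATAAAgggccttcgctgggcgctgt
Krt18: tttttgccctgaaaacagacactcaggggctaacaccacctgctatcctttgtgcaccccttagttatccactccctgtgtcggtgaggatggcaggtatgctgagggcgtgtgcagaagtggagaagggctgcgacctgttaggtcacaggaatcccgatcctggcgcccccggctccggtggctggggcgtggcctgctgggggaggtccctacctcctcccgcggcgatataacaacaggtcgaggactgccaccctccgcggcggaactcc
Vcl: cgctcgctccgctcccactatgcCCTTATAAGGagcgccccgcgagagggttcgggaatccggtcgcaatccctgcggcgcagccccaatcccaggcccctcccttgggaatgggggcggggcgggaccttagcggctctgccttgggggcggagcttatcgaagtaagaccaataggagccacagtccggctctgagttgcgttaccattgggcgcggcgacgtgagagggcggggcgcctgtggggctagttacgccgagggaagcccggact
Myl9: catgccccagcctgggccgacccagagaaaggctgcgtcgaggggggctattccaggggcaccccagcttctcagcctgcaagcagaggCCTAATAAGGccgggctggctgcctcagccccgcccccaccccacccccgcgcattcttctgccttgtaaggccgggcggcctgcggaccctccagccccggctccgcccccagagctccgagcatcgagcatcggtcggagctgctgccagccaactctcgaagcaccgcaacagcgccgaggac
The Krt8 window held overlapping matches to TATAAA on both strands, and the Krt18 window held none of the motifs. Vcl and Myl9 each held a CArG box. In windows reaching 50 bases past the start, a CArG box was present in 535 of 32851 RefSeq promoters (1.63%), AP-1 in 5.2% and TATAAA in 13.6%. A match is a description of the letters and not a measured site. Of the 3 keratins of the rule, 2 had a promoter entry.

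The number of keratin UMIs in a chosen cell had a median of 5, a 90th percentile of 14 and a maximum of 86. Just inside the limit were 154 cells with 3 keratin UMIs, and just outside it 357 cells with 2. On the trophoblast side 9 chosen cells had 3 UMIs of Rhox6, Plac1 and Hand1, 13 cells just outside had 4, and 461 chosen cells (83.8%) had 0. Krt8 gave 1688 UMIs, Krt18 gave 1750 and Krt19 gave 869. All 3 keratins were detected in 222 cells (40.4%), and 443 cells (80.5%) carried the type II keratin Krt8 together with a type I partner. Krt19 was the lone keratin in 16 cells.

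**Figure D1:**
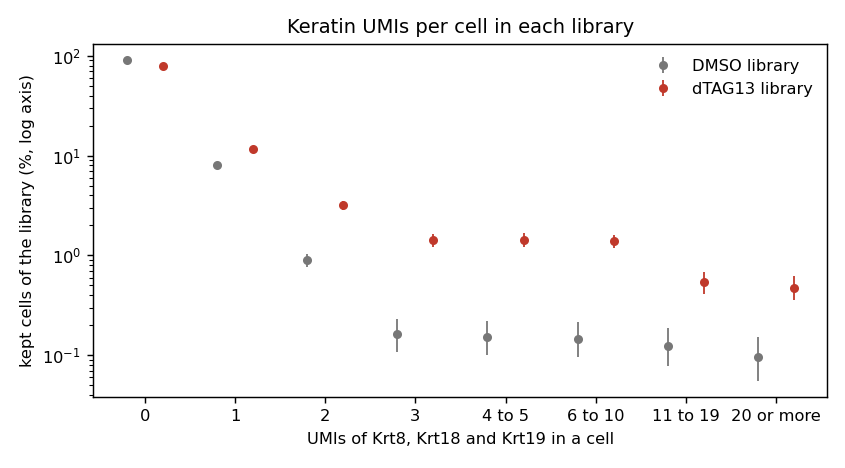
Share of kept cells (%, log axis) by the number of UMIs of Krt8, Krt18 and Krt19 in a cell, for the DMSO and dTAG13 libraries; bars are exact binomial 95% intervals. At 20 or more keratin UMIs the dTAG13 library has 55 cells (0.475%) and the DMSO library 17 (0.0951%).

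In the DMSO library the same rule found 56 of 17878 kept cells (0.313%, 0.237 to 0.407), and 34 of 15908 (0.214%, 0.148 to 0.299) after thinning to 4000 UMIs. The share in the dTAG13 library was thus 15.2 times that in the DMSO library as counted. With at least 2 keratin UMIs the shares were 7.83% and 1.08%, and with at least 5 they were 2.55% and 0.162%. With 0 UMIs of Rhox6, Plac1 and Hand1 they were 3.98% and 0.168%. The dTAG13 library had the larger share at each of these limits. Another 58 dTAG13 cells had at least 3 keratin UMIs and at least 4 of the trophoblast genes, and 65 DMSO cells did. The trophoblast limit thus left out a larger part of the DMSO cells (65 beside 56 chosen) than of the dTAG13 cells (58 beside 550). The ratio of 15.2 depends on that limit. In the keratin-0 cells, Rhox6, Plac1 and Hand1 summed to 62.4 CPM in the DMSO and 12.2 CPM in the dTAG13 library. The chosen cells had 291 CPM of Krt8, 302 of Krt18 and 150 of Krt19 (a gene's UMIs per 1e6 UMIs, summed over the cells of a group), and the 56 DMSO cells had 322, 520 and 57.1.

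RNA free in the droplets can give a cell UMIs of genes it does not express. The Zscan4 genes, which rare cells express in bursts, were used to bound this, after leaving out cells with at least 10 Zscan4 UMIs. The keratin-positive cells then held 9 Zscan4 UMIs in 2 cells, which is 16% of the library's level (7.33 to 30.4) and at most what free RNA gave; 7 of the 9 lay in 1 cell. With a limit of 3 UMIs instead, chosen after the first value was seen and leaving out that cell, they held 2 UMIs, or 3.57% (0.432 to 12.9). The lower limit removes cells by the same UMIs that are then counted, so the larger value is the one used here. Of the 24 cells with at least 10 Zscan4 UMIs (median 5902.5 UMIs), 3 had a keratin UMI (12.5%, 2.66 to 32.4) and 0 had at least 3, for which the exact interval reaches 14.2%. Over all kept dTAG13 cells (median 7072.5 UMIs) the shares were 20% and 5.25%, so at this number of cells the background of a single keratin UMI was not resolved from the library's share.

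Genes of naive pluripotency were lower in the keratin-positive cells. Of 7214 genes with at least 10 CPM in either group, 861 (11.9%) had a level at least 1.5 times that in the keratin-0 cells, 445 (6.17%) were lower by the same factor, and the median log2 ratio over all of them was 0.03. Of 18 measured naive genes, 15 were at least 1.5-fold lower and 0 higher, with a median log2 ratio of -1.39. The working name of these cells was that they stay pluripotent, and the naive genes go against it, so they are called keratin-positive cells.

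Nanog, a transcription factor that sustains self-renewal, was at 20.5 CPM in keratin-positive and 80.1 CPM in keratin-0 cells, a ratio of 0.256 (0.212 to 0.307). Zfp42, also known as Rex1 and used as a marker of the naive state, was at 118 against 459 CPM. Esrrb, an orphan nuclear receptor of the naive network, was at 7.93 against 35.9 CPM, and Klf4 at 8.79 against 33.8. These 4 genes had ratios between 0.221 and 0.26. Tcl1, a co-activator of Akt, had a ratio of 0.18 and Nr0b1 a ratio of 0.2. Dppa5a, a further marker of the naive state, had a ratio of 0.67, Stat3 1.03 and Klf5 1.08. The keratin-positive cells held 28.2% (23.4 to 33.8) of the library's level of Nanog and 24.8% (18.1 to 33.1) of its level of Esrrb. Both intervals overlap the bound on free RNA of up to 30.4% that came from the 9 Zscan4 UMIs of these cells. The same bound from 9250 keratin-0 cells was 16.5% (13.6 to 19.9), below the interval of Nanog and overlapping that of Esrrb. How much of these remaining UMIs came from the cells was not tested.

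The factors shared by naive and later pluripotent cells were nearer to the keratin-0 level. Of 12 measured, 6 were at least 1.5-fold lower and 1 higher, with a median log2 ratio of -0.56. Pou5f1 (Oct4) was at 406 against 530 CPM, a ratio of 0.766 (0.735 to 0.799), and had a UMI in 86.4% of keratin-positive cells. Sox2, its partner, was at 200 against 355 CPM, a ratio of 0.562 (0.53 to 0.597). Tdgf1, a Nodal co-receptor, was at 189 against 355 CPM, and Rif1 at 266 against 514. The lowest ratios of the list were those of Zfp296, 0.385 (0.296 to 0.493), and Gdf3, 0.495 (0.438 to 0.558). Lin28a, an RNA-binding protein that blocks let-7 maturation, was 1.66-fold higher.

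The same was seen cell by cell at equal depth. After thinning to 4000 UMIs (509 keratin-positive and 8554 keratin-0 cells, with 41 and 717 shallower cells left out), the naive list gave a median of 20 UMIs in keratin-positive and 35 in keratin-0 cells. Without Dppa5a the medians were 3 and 7, and the shared list gave 6 and 11. The 10th to 90th percentiles of the naive list were 7 to 38 and 18 to 52, so the groups overlapped. A count of the naive list below the keratin-0 cells' 10th percentile of 18 UMIs was found in 209 keratin-positive cells (41.1%) and in 8.91% of keratin-0 cells.

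**Figure D2:**
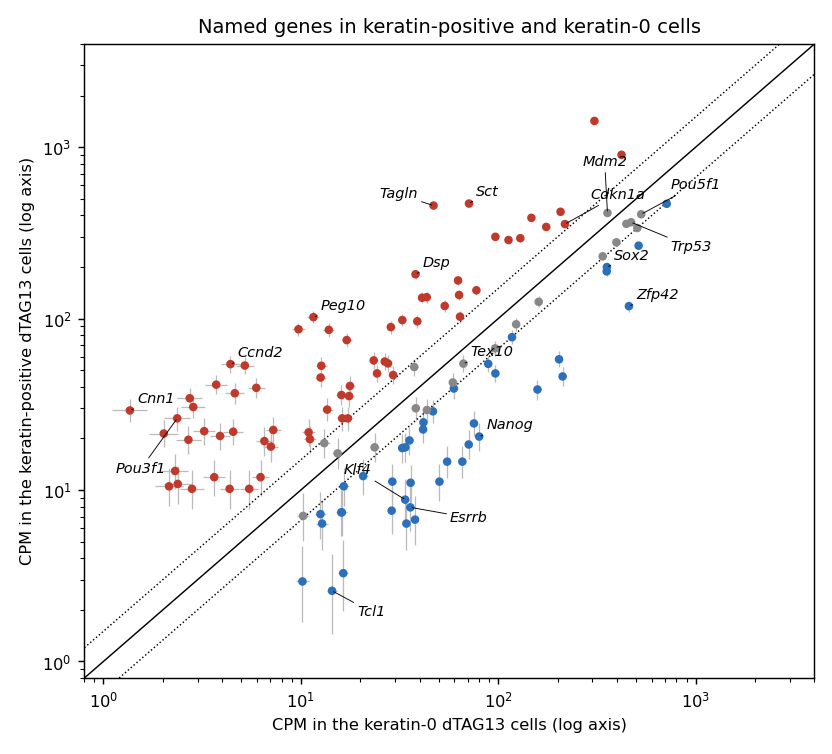
CPM of named genes in the 550 keratin-positive dTAG13 cells against the 9271 keratin-0 cells (both log axes); bars are exact Poisson 95% intervals, the solid line is equality and dotted lines are 1.5-fold. Red genes are at least 1.5-fold higher and blue at least 1.5-fold lower; Tagln lies at 457 against 47 CPM and Nanog at 20.5 against 80.1.

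Smooth-muscle and actin-filament genes were higher. Of 20 measured genes of a list of actin and serum response factor targets, 16 were at least 1.5-fold higher and 0 lower, with a median log2 ratio of 1.21. Cnn1, the calponin of smooth muscle, was at 29.1 against 1.36 CPM, a ratio of 21.4 (16.5 to 27.8), and had a UMI in 17.3% of keratin-positive cells. Tagln (transgelin), an actin-bundling protein, was at 457 against 47 CPM, a ratio of 9.71 (9.22 to 10.2), with a UMI in 64.4% against 12.9% of cells. Tpm1, a tropomyosin that lies along actin filaments, was at 1423 against 307 CPM. Zyx, a focal adhesion protein, was 5.6-fold higher, Myl9 4.57-fold and Vcl 1.66-fold. The cytoplasmic actins Actb and Actg1 were at ratios of 1.24 and 1.67. Without them the list gave a median of 12 UMIs per thinned keratin-positive cell and 4 per keratin-0 cell. Of 18 of these genes with RefSeq promoters, 4 held a CArG box: Actg1, Cnn2, Myl9 and Vcl. By promoter this was 4 of 20 (20%), against 1.63% of all RefSeq promoters. The list was drawn up as actin genes and serum response factor targets, so this count is no result about these cells.

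Genes of epithelial junctions were higher as well: of 24 measured, 16 were at least 1.5-fold higher and 0 lower, with a median log2 ratio of 0.77. Dsp (desmoplakin), which ties keratin filaments to desmosomes, was at 181 against 38.1 CPM, a ratio of 4.76 (4.43 to 5.11). Ppl (periplakin), a related linker, was 4.82-fold higher. The tight-junction claudin Cldn7 was 3.07-fold higher, the tight-junction protein Cgn 2.95-fold and the adherens-junction cadherin Cdh1 1.79-fold, at 207 against 116 CPM. Epcam was at 361 against 305 CPM, a ratio of 1.19. Krt7, a simple keratin outside the rule, was at 17.9 against 7.06 CPM.

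The remaining genes with the highest ratios were of several kinds. Ccnd2 (cyclin D2) was at 54.3 against 4.4 CPM, a ratio of 12.3 (10.5 to 14.5). Kif1a, a motor for axonal transport, was 12.5-fold higher, and the type III intermediate filament Prph (peripherin) 8.9-fold. Nes (nestin), an intermediate filament of neural progenitors, was at 86 against 13.9 CPM, while Neurod1, a neural transcription factor, was at 28.8 against 46.7. The calcium-binding and membrane-associated Anxa3 was 11-fold higher, the actin-severing Gsn 10.6-fold, the secreted ligand Wnt4 10.2-fold and the urokinase receptor Plaur 6.63-fold. Sct, the hormone secretin, was at 469 against 71.1 CPM and had a UMI in 82.7% against 26% of cells. Among formative genes, Pou3f1 (Oct6) was 11.1-fold higher, Lef1 4.56-fold and Sox4 4.18-fold, while Etv5 was at a ratio of 0.548.

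Markers of other cell types moved with the keratins in part, and their part in these results was not tested. Of 10 measured trophoblast genes outside the rule, 5 were at least 1.5-fold higher and 0 lower: Peg10 (8.81-fold), Sct, Ascl2 (5.3-fold), Gata2 (3.09-fold) and Krt7. The trophoblast list summed to 895 CPM in keratin-positive and 318 CPM in keratin-0 cells, of which Sct alone gave 469 and 71.1 CPM. In the 58 dTAG13 cells high in both keratins and trophoblast genes, the list summed to 2122 CPM. Tfap2c was at a ratio of 1, and of the defining factors Cdx2 gave 3 UMIs and Elf5 0 in all 550 cells. Gata3, another factor of trophectoderm, gave 53 UMIs, at 9.13 against 2.48 CPM, a ratio of 3.68 (2.65 to 5.04). Eomes gave 22 UMIs, a ratio of 1.48 (0.903 to 2.31). Of the measured endoderm genes 3 of 4 were higher (Col4a1, Sparc and Lamb1), while Gata6 gave 5 UMIs and Sox17 0. No fibroblast gene of the list reached 10 CPM. Sox17 and Elf5 at 0 UMIs allow up to 3 UMIs over these cells.

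**Figure D3:**
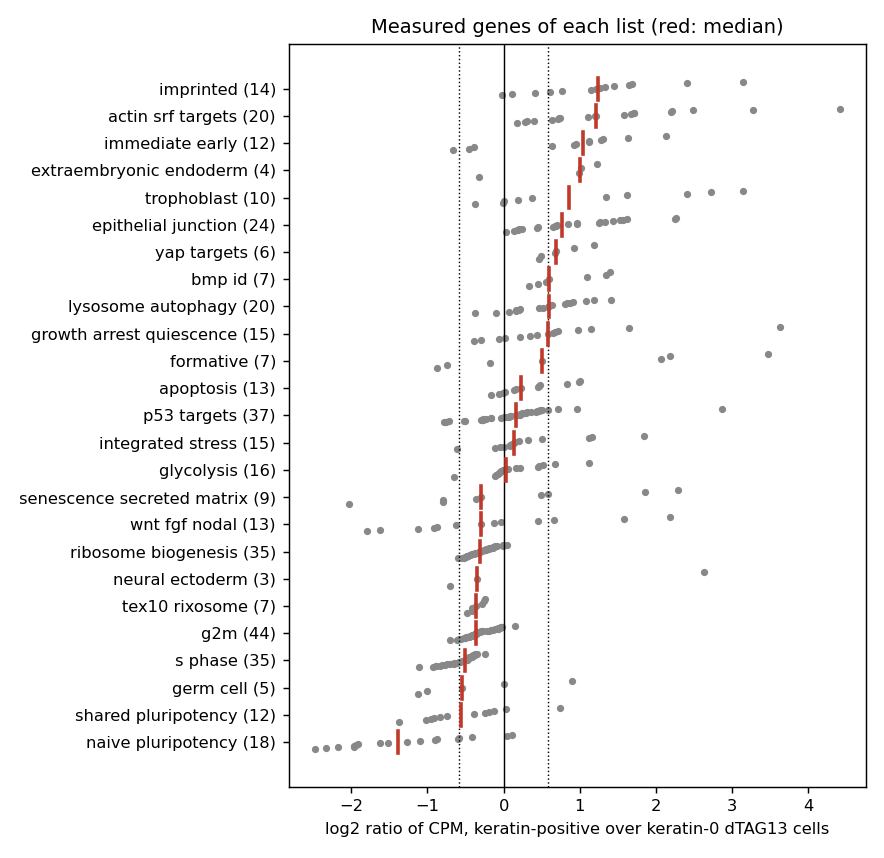
Log2 ratio of CPM, keratin-positive over keratin-0 dTAG13 cells, for each gene (grey point) of lists with at least 3 measured genes; the red bar is the list's median, the number measured is in parentheses and dotted lines are 1.5-fold. The actin list has a median of 1.21 and the naive pluripotency list of -1.39.

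Imprinted genes, expressed from 1 parental copy, were higher in 11 of 14 measured and lower in 0, with a median log2 ratio of 1.24; Peg3 was at 139 against 57.9 CPM and Cdkn1c, a cyclin-dependent kinase inhibitor, at 89.3 against 28.6. Immediate-early genes were higher in 9 of 12 and lower in 1, with Atf3 4.39-fold and Klf6 3.1-fold higher. Of 7 genes of the BMP pathway and its Id targets, 4 were higher and 0 lower. Id1, Id2 and Id3, inhibitors of differentiation factors, were 2.14-, 2.63- and 2.55-fold higher. Of 20 lysosome and autophagy genes 10 were higher and 0 lower, among them Sqstm1 at 2.67-fold. These lists all lay above the median of 0.03 over all genes.

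The p53 targets passed the limit about as often as all genes did. Of 37 measured p53 targets, 4 were higher and 3 lower, with a median log2 ratio of 0.16. Over all genes 11.9% were higher and 6.17% lower. Mdm2, the ubiquitin ligase that p53 induces against itself, was at 413 against 358 CPM, a ratio of 1.16 (1.11 to 1.21). Cdkn1a (p21) was at 356 against 218 CPM, a ratio of 1.63 (1.56 to 1.71), and Trp53 at 365 against 471. Bhlhe40 was 7.29-fold higher and Perp, a desmosome-linked p53 target, 1.96-fold. Tex10 was at 54.6 against 66.7 CPM, a ratio of 0.82 (0.729 to 0.919), and 0 of 7 measured rixosome genes passed 1.5-fold in either direction. All 7 were somewhat lower, with ratios between 0.72 and 0.841 and a median log2 ratio of -0.36, against 0.03 over all genes. A degraded protein need not change its transcript, so the Tex10 transcript does not check the treatment.

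S-phase genes were lower in part, and few mitotic genes passed the limit. Of 35 S-phase genes 13 were at least 1.5-fold lower and 0 higher (median log2 ratio -0.51), and of 44 G2 and mitotic genes 2 were lower and 0 higher (median -0.36), a smaller share than the 6.17% of all genes. Top2a, the topoisomerase of mitotic chromosomes, was at 338 against 507 CPM. When the keratin-0 cells were weighted to the same mitotic UMIs as the keratin-positive cells, the naive median was -1.39 and the actin median 1.15. The mitotic median became -0.04, which follows from weighting by these same genes. Weighted to the same total UMIs, the naive median was -1.34 and the actin median 1.23.

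Levels differed in steps with the number of keratin UMIs. Across cells with 0, 1, 2, 3, 4 to 5, 6 to 10 and over 10 keratin UMIs (and fewer than 4 trophoblast UMIs), Nanog was at 79.8, 64.4, 40.5, 22.9, 23.6, 20.2 and 14.1 CPM. Tagln was at 47, 102, 171, 354, 451, 459 and 588 CPM over the same steps. Mdm2 stayed between 359 and 440 CPM. Median depth went from 6887.5 UMIs at 0 to 12350 at over 10, and the thinned mitotic count from 37 to 18. For Nanog and Tagln, the pooled levels of cells with 1 or 2 keratin UMIs thus lay between those of the keratin-0 and keratin-positive cells. Whether the single cells of these steps were intermediate or a mix of both kinds was not tested.

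**Figure D4:**
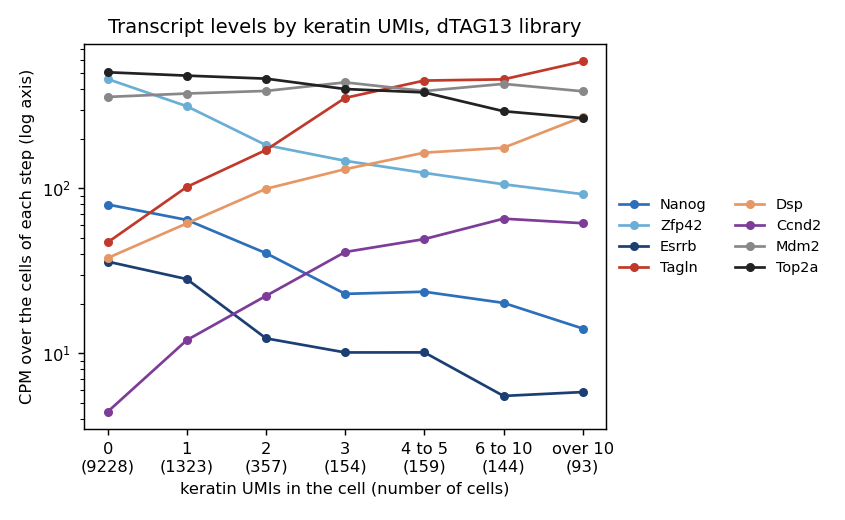
CPM (log axis) of 8 genes over dTAG13 cells grouped by keratin UMIs, with the number of cells in parentheses and no error drawn. Nanog goes from 79.8 to 14.1 CPM and Tagln from 47 to 588 CPM, while Mdm2 stays between 359 and 440.

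The keratin-positive cells were spread over several clusters, and whether these are separate kinds of cell was not tested. Clustering of the kept dTAG13 cells with the 6 rule genes left out gave 13 clusters. Cluster 6, led by Ccnd2, Sct, Dmkn, Peg10 and Prph, held 250 of the cells (45.5%, 41.2 to 49.7), cluster 8, led by Sox11, Ebf1, Pim2 and Kif1a, held 153 (27.8%), and cluster 7, led by Shisal2b, Robo3 and Atf3, held 97 (17.6%). Keratin-0 cells were spread differently, with 6.02%, 5.26% and 6.59% of them in these clusters. Cluster 6 also held 42 of the 58 cells high in both keratins and trophoblast genes, and keratin-positive cells were 21.6% of it.

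Keratin-positive cells inside and outside cluster 6 are set side by side as a description, since clustering used these genes. Inside, Top2a was at 106 CPM and the thinned mitotic count had a median of 9; outside, they were 453 CPM and 36, near the 37 of the keratin-0 cells. Median depth was 6124.5 UMIs inside and 12035 outside. Nanog was at 13 CPM inside and 24.2 outside, and Tagln at 430 and 470. Low Nanog and high Tagln were thus found both in keratin-positive cells with few mitotic transcripts and in those with many. Keratin-0 cells of cluster 6 had 34.9 CPM of Nanog and 161 of Tagln, against 82.1 and 42.1 in keratin-0 cells of the other clusters. Within cluster 6, Ccnd2 was at 72.4 CPM in keratin-positive and 41.1 in keratin-0 cells, and Sct at 828 and 396 CPM. In keratin-0 cells of the other clusters Ccnd2 was at 2.81 CPM and Sct at 57.1, so the gaps inside the cluster were smaller than those over the whole library.

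**Figure D5:**
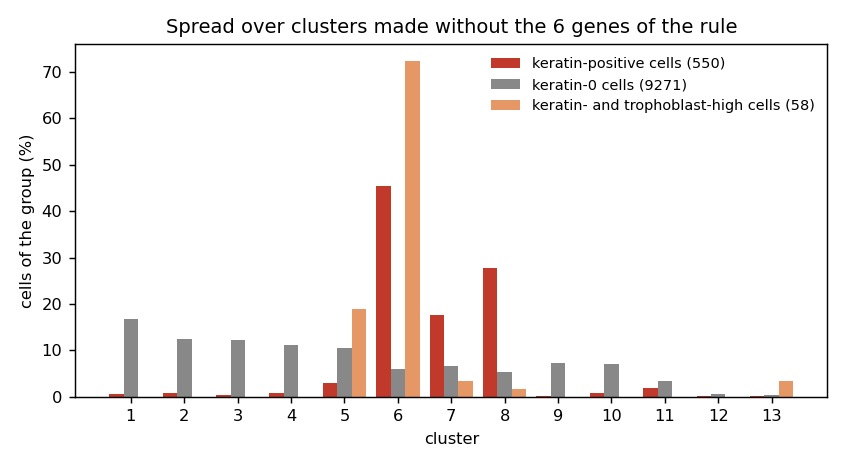
Share of each group of dTAG13 cells (%) in each of 13 clusters made without the 6 genes of the rule; the red bars are the 550 keratin-positive cells. Clusters 6, 7 and 8 hold 45.5%, 17.6% and 27.8% of them and 6.02%, 6.59% and 5.26% of the keratin-0 cells.

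The 58 dTAG13 cells high in both keratins and trophoblast genes were the most alike by rule, and several levels lay close to each other. The actin list summed to 8410 CPM in the keratin-positive and 8405 CPM in those cells, with Tpm1 at 1423 and 1383 CPM and Dsp at 181 and 180. At 4000 UMIs the actin list without Actb and Actg1 had medians of 12 and 13 UMIs, and the naive list without Dppa5a 3 in both. Other genes differed. Ccnd2 was at 54.3 CPM in keratin-positive and 4.23 in those cells, a ratio of 12.8 (4.35 to 62.6), and Vim at 90 against 7.05. Tagln was 2.57-fold higher in the keratin-positive cells (2.15 to 3.1). Col4a1, a basement membrane collagen, was at 10.2 against 93 CPM, Phlda2 at 132 against 589, Cdkn1c at 89.3 against 359 and Gata2 at 22.4 against 106. Pou5f1 was 1.33-fold higher (1.16 to 1.54) in the keratin-positive cells and Nanog at a ratio of 0.52 (0.342 to 0.815).

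The DMSO library gave a second look at the same rule, on 56 cells with few UMIs. Compared with the keratin-0 cells of that library, 1662 of 7389 genes (22.5%) reached 1.5-fold upwards and 762 (10.3%) downwards. The 56 cells held 490655 UMIs in all, against 5802397 in the 550 keratin-positive dTAG13 cells. Of the 15 genes highest in the dTAG13 library, 13 reached 10 CPM in the DMSO library and 13 of these were at least 1.5-fold higher there too. For all of these but Tagln and Sct, the keratin-0 level was so low that reaching 10 CPM already meant a 1.5-fold rise. Their count is therefore no check on the dTAG13 result. Of the 15 lowest, 14 of 15 were lower by the same limit, and 0 passed it in the opposite direction. Tagln was at 526 CPM in the DMSO cells of the rule and 21.2 in their keratin-0 cells, and Nanog at 38.7 against 86.9.

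Keratin-positive cells of the 2 libraries differed in other genes, with 1 library each, and for each gene named here except Tagln the keratin-0 cells differed in the same direction. Mdm2 was at 413 CPM in the dTAG13 cells and 57.1 in the DMSO cells of the rule, and the keratin-0 cells of the libraries had 358 and 45.6. Prph was at 86.7 against 8.15 CPM, with 9.74 and 1.99 in the keratin-0 cells. Cdkn1a was at 356 against 116 CPM (keratin-0 cells 218 and 67.2), and Sct at 469 against 177 (keratin-0 cells 71.1 and 9.33). Acta2, smooth-muscle actin, was at 5.34 against 59.1 CPM (keratin-0 cells 1.46 and 5.62) and the Wnt antagonist Sfrp1 at 2.93 against 38.7 (keratin-0 cells 10.2 and 44.2). Tagln was at 457 against 526, and in the keratin-0 cells at 47 and 21.2.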

How the data were processed

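Droplet 3′ single-cell RNA was counted by the authors; Cell Ranger 8.0.1 is the counter the file headers record. The submitters' processing notes also name mm10, Seurat 5.0.1 and R 4.3.2. The deposited values are UMI counts, not normalized, for 33696 gene IDs in 1 DMSO and 1 dTAG13 library (17958 and 11644 barcodes; 117260846 and 91850185 UMIs). Rows of 26 repeated symbols were summed. No doublet caller was run and no doublet removed; leaving out the 5% of cells with the most UMIs was an alternative.

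The members and gene lists were chosen with earlier results of these data known. UMIs were summed over cells and divided by the group's total (CPM), with exact Poisson intervals, exact conditional intervals for ratios and exact binomial (Clopper-Pearson) intervals for shares at 95%. With 1 library per group nothing was tested. Named genes were the 15 highest and 15 lowest ratios among genes with at least 20 CPM in a group and a UMI in 5% of its cells, without genes that are predicted, mitochondrial or of ribosomal proteins; up to 4 per list by size of change; and fixed controls. Other genes in the text were chosen after their values were seen, among them those compared with the trophoblast-high and DMSO cells. Thinning drew 4000 UMIs per cell. Weighted comparisons used 5 strata of the members' depth or mitotic UMIs. Clusters came from leidenalg 0.10.2 (resolution 1, 15 neighbours, 30 principal components of 2000 variable genes); ratios were checked on simulated counts with known changes.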

Additional observations from a re-analysis of the deposited data

How the results depend on the processing

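The count of higher genes was 861 and of lower genes 445. With a minimum of 20 CPM there were 496 higher genes of 5244 tested, and with a minimum of 5 CPM 1369 of 9158. The other 7 alternatives (weighting by depth or by mitotic UMIs, median of ratios scaling, at least 5 keratin UMIs, 0 trophoblast UMIs, without the deepest 5% of cells, mean of each cell's CPM) gave counts within 1.5 times of these, in both directions. The share of keratin-positive cells was 7.83% with at least 2 keratin UMIs, 2.55% with at least 5, 3.98% with 0 trophoblast UMIs and 2.45% after thinning; these limits themselves set the share. Median thinned UMIs of the naive list in keratin-positive and keratin-0 cells were 30 and 52 at 6000 UMIs, 3 and 7 without Dppa5a, and 18 in keratin-positive cells with at least 5 keratin UMIs; the shared list gave 11 and 17 at 6000 UMIs. Cluster 6's counterpart held 47.6% and 48.9% of the cells with resolution 0.5 and 15 components. Of 106 named genes past 1.5-fold, 9 fell short in at least 1 of 7 alternatives (Neurod1, Asns, Tpi1, Pdk1, Ccn2, Aurka, Ube2c, Rrp1b, Smad1), and 0 reversed. The ratio of Ccnd2 was 7.84 weighted by mitotic UMIs, that of Esrrb 0.116 without the deepest cells, and those of Cobl, Jam2, Morc1 and Tcl1 between 0.103 and 0.171 with at least 5 keratin UMIs. The Zscan4 bound was 16% with the limit of 10 UMIs and 3.57% with the limit of 3, which was chosen after seeing the data. No paired analysis was possible because each group is 1 library.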

Other observations

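Xist, the RNA that coats an inactive X chromosome, was at 47.6 CPM in the keratin-positive cells and 8.62 CPM in the keratin-0 cells, a ratio of 5.52 (4.77 to 6.38), with a UMI in 76 cells (13.8%) against 3.79%. Of its 276 UMIs in keratin-positive cells, 165 lay in 20 cells with at least 5. Xist was at 86 CPM (65.8 to 110) in the 58 dTAG13 cells high in both keratins and trophoblast genes, with a UMI in 20.7% of them, and at 55 CPM (36.3 to 80.1) in the 56 DMSO cells of the rule. Tsix, its antisense partner, was at 22.2 against 45.4 CPM. Both genes were named after their values were seen.

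S100a6, a small calcium-binding protein named after its values were seen, was at 1017 CPM in the keratin-positive cells and went from 206 CPM at 0 keratin UMIs to 1841 at over 10.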
